A study of Bos taurus with 8 samples.

Results

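Interferon tau and the trophoblast Kunitz domain proteins are secreted products of the ruminant trophectoderm, and their genes were read in bovine day 7 blastocysts produced in vitro and in vivo. The probes were chosen by the gene symbol of the array annotation, as every probe named for IFNT, TKDP1, TKDP2, TKDP3, TKDP4 or TKDP5 or carrying an older interferon tau symbol. This gave 6 of the 43795 probes of the array and 5 symbols, namely TKDP1, TKDP2, TKDP4 (2 probes), IFNT and IFN-tau-c1, the last counted as an older interferon tau symbol. The annotation used here lists no probe under TKDP3, TKDP5, IFN-TAU, TP-1 or IFNT2, and these are not analysed here.

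Each of the 8 two-colour arrays compared 1 sample of in vitro with 1 sample of in vivo blastocysts. The in vitro embryos came from cumulus-oocyte complexes matured, fertilized and cultured in vitro and were collected 168 h after fertilization. For them the labels name slaughterhouse ovaries, with follicles of 2 to 6 mm, in the protocol and ovum pick-up in the source name, and this was not settled here. The in vivo embryos came from Holstein heifers or cows in which follicles over 8 mm had been ablated on day 8 to 12 after oestrus, followed by 8 FSH injections (400 mg in all, falling from 60 to 20 mg) and 500 ug of a prostaglandin F2alpha analogue with each of the last injections. They were inseminated 12 and 24 h after oestrus and flushed from the uterus 7.5 days after the first insemination, and carry the label of day 7. The same pooled semen was used for both kinds, so they differ in the source of the oocyte, the ovarian stimulation, the place of maturation, fertilization and culture, and the clock by which age was counted. There were 4 biological replicates of each kind, and the sources used here do not give the number of embryos in a sample. Each replicate number was hybridised with in vitro RNA in Cy5 and in vivo RNA in Cy3 (slide 58) and again with the dyes exchanged (slide 61), so the slide cannot be told apart from the dye orientation.

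Interferon tau is the signal by which a ruminant conceptus makes itself known to the mother: it is released by the trophectoderm and acts through the type I interferon receptor of the uterine lining, where it prevents the prostaglandin pulses that would end the corpus luteum. It is made by several closely related, intronless gene copies, and the protein is detectable from the blastocyst stage on. The trophoblast Kunitz domain proteins (TKDPs) are found in ruminants and their relatives, join a Kunitz fold of the type found in pancreatic trypsin inhibitor to extra domains of their own, and are known chiefly as abundant secretions of the elongating conceptus.

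In the ARS-UCD2.0 annotation the TKDP genes stand together. TKDP4 follows TKDP1 with 1 long noncoding RNA gene between them, and TKDP2 follows TKDP4 with 0 genes between. PTI, named for pancreatic trypsin inhibitor, comes 6 genes further on. The symbol IFNT is no longer in use there and is a synonym of 2 genes, IFNT2 and IFNT3, which have 1 pseudogene between them. IFN-tau-c1 follows IFNT2 with 1 pseudogene between. Probe sequences were not used here, so how far a probe also reads a related copy was not tested, and the values below belong to the probe as annotated.

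Values are log2 ratios of in vitro over in vivo, so that a negative one is lower in vitro, and levels are normalized log2 intensities that may be compared between samples for 1 probe and not between probes. A probe counted as detected in a channel when it read above 95% of the negative control spots, and it was tested when it was detected on all 8 arrays in either kind of embryo or both. This held for 24775 probes and for 5 of the 6 member probes. Across all tested probes, the replicate ratios of replicate 2 correlated with those of the other numbers at 0.386 to 0.459, and those of replicates 1, 3 and 4 with each other at 0.804 to 0.822. The labels call the replicates biological without saying how they were separated, so the p-values measure the spread between these samples.

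TKDP1 was lower in in vitro blastocysts in every comparison made, and no other member passed the test. Its log2 level was 8.36, 7.87, 8.28 and 8.25 in the in vitro samples of replicates 1 to 4, against 10.20, 9.93, 10.08 and 9.93 in the in vivo samples. All 4 in vitro samples lay below all 4 in vivo samples, with more than 1 log2 unit of empty space between the groups. The replicate ratios were -1.84, -2.07, -1.80 and -1.68. They average -1.85 ± 0.08 (SE, n = 4; 95% interval -2.05 to -1.64), with an SD of 0.16 between replicates. On the linear scale the in vitro level was 0.278 of the in vivo level, or in vivo 3.60-fold higher (limma, adjusted p = 0.00617 over all tested probes). Of the 5 tested member probes 1 was called, TKDP1, beside 15.8% of all tested probes (8.80% lower and 7.01% higher in vitro). Non-overlap of the levels held for 1 of the 5 as well, beside 19.2% of all tested probes (10.5% with in vitro below in vivo).

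The dye made little difference to TKDP1. With in vitro in Cy5 the ratios of replicates 1 to 4 were -1.90, -2.02, -1.95 and -1.79, and with the dyes exchanged -1.78, -2.11, -1.65 and -1.58. The ratio was thus below 0 on 8 of 8 arrays, beside 18.8% of all tested probes that kept 1 sign on all arrays. The uncorrected TKDP1 spot read 262 to 383 in vitro (median 302) and 775 to 1637 in vivo (median 1065), each over 8 readings. The negative control percentile ran from 76.1 to 229 over the channels, so the in vitro readings were not far above it. A log2 ratio computed with an offset can understate the change of a dim spot. With local background subtracted and no offset the TKDP1 ratio was -1.85 as well. TKDP1 was detected on 8 of 8 arrays in both kinds of embryo.

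**Figure D1:**
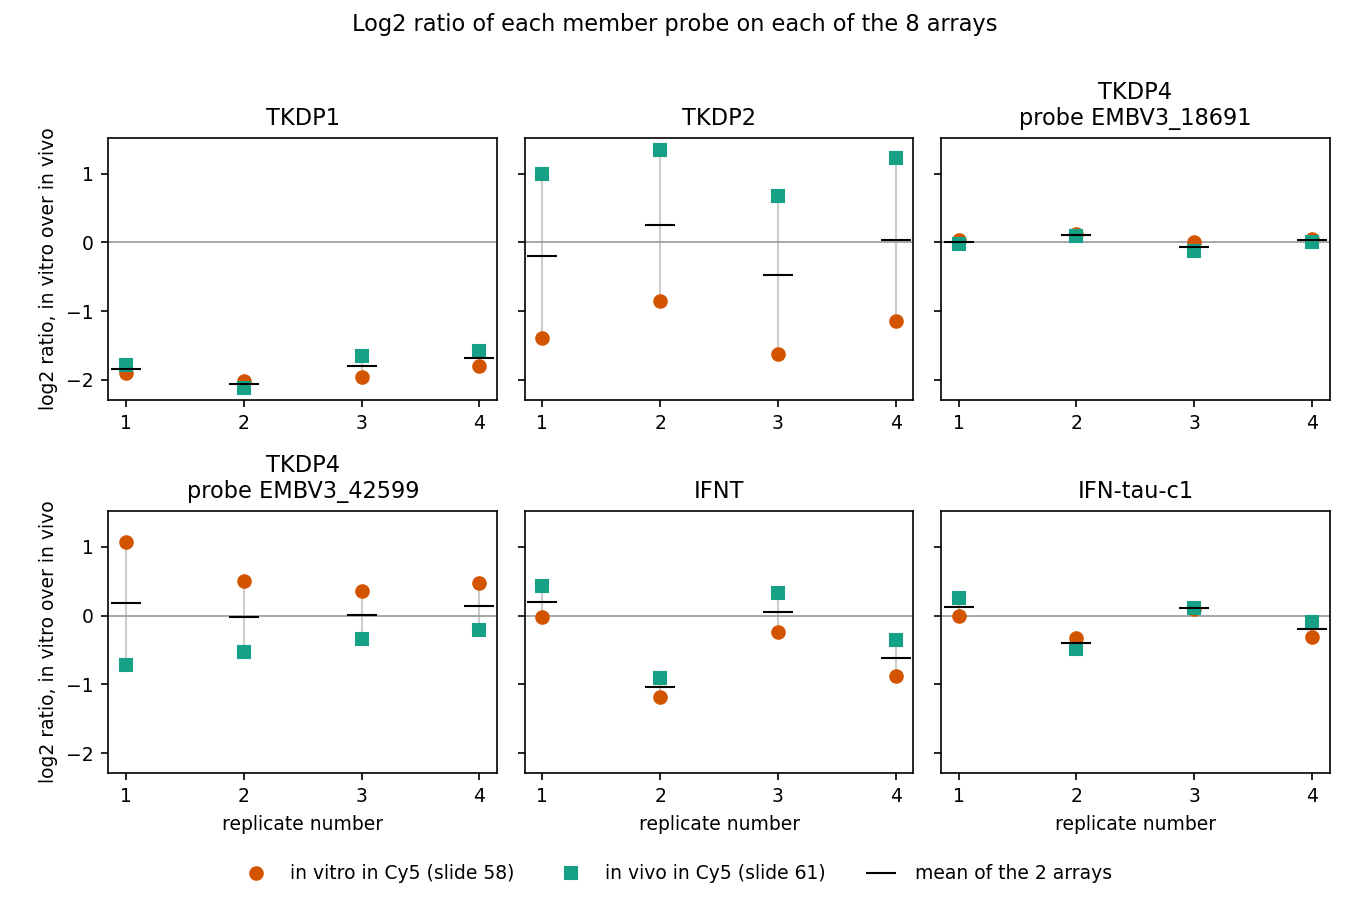
Log2 ratio of in vitro over in vivo (vertical axis) for each member probe in each replicate number (horizontal axis). Circles are arrays with in vitro RNA in Cy5, squares arrays with in vivo RNA in Cy5, and the bar is the mean of the 2. TKDP1 lies between -2.11 and -1.58 on all 8 arrays, TKDP2 splits by dye, and IFNT drops in replicates 2 and 4.

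TKDP2, the annotated neighbour of TKDP4 in the same cluster, gave no call and a ratio near 0. Its log2 level was 10.56, 10.95, 10.57 and 10.95 in vitro, against 10.76, 10.70, 11.05 and 10.91 in vivo. The groups overlapped, and neither kind of embryo was regularly the higher. The replicate ratios were -0.19, 0.25, -0.47 and 0.04, with a mean of -0.09 ± 0.13 (SE, n = 4; 95% interval -0.43 to 0.24; limma adjusted p = 0.741). The interval does not reach the TKDP1 change and allows a TKDP2 level in vitro of 0.743 to 1.18 of that in vivo.

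This mean hides a strong effect of the dye on the TKDP2 probe. With in vitro in Cy5 the ratios were -1.38, -0.86, -1.62 and -1.14, and with the dyes exchanged 1.00, 1.35, 0.67 and 1.23. The 2 slides therefore show opposite signs in every replicate, with means of -1.25 and 1.06. TKDP2 spots read 963 to 1382 in Cy5 and 2406 to 3004 in Cy3 for in vitro RNA, and 997 to 1286 in Cy5 and 2781 to 3592 in Cy3 for in vivo RNA. The Cy3 reading was higher than the Cy5 reading for both kinds of embryo, in all replicates. The dye effect, the part of the log2 Cy5 over Cy3 ratio that does not turn when the dyes are exchanged, was -1.16 ± 0.03 (SE, n = 4), a 2.23-fold brighter Cy3 signal (limma adjusted p = 4.04e-07). Its size exceeded that of 99.3% of all tested probes, and 0.916% of them had an effect of at least 1. A dye effect passed the test in 2 of the 5 tested member probes, TKDP2 and IFNT, beside 68.3% of all tested probes (29.5% brighter in Cy3 and 38.8% in Cy5).

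With the dye held fixed, a comparison added after the values were seen, TKDP2 differed between in vitro and in vivo by -0.13 (SD 0.41) within Cy5 and by -0.06 (SD 0.38) within Cy3, each over the 4 replicate numbers. It was lower in vitro in 2 of 4 replicates in either dye. Opposite signs in the 2 orientations on all 8 arrays occurred for 14.4% of all tested probes. A reading of TKDP2 from 1 slide alone would thus carry the dye with it, whereas TKDP1 had a dye effect of -0.07 ± 0.04 (adjusted p = 0.128).

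**Figure D2:**
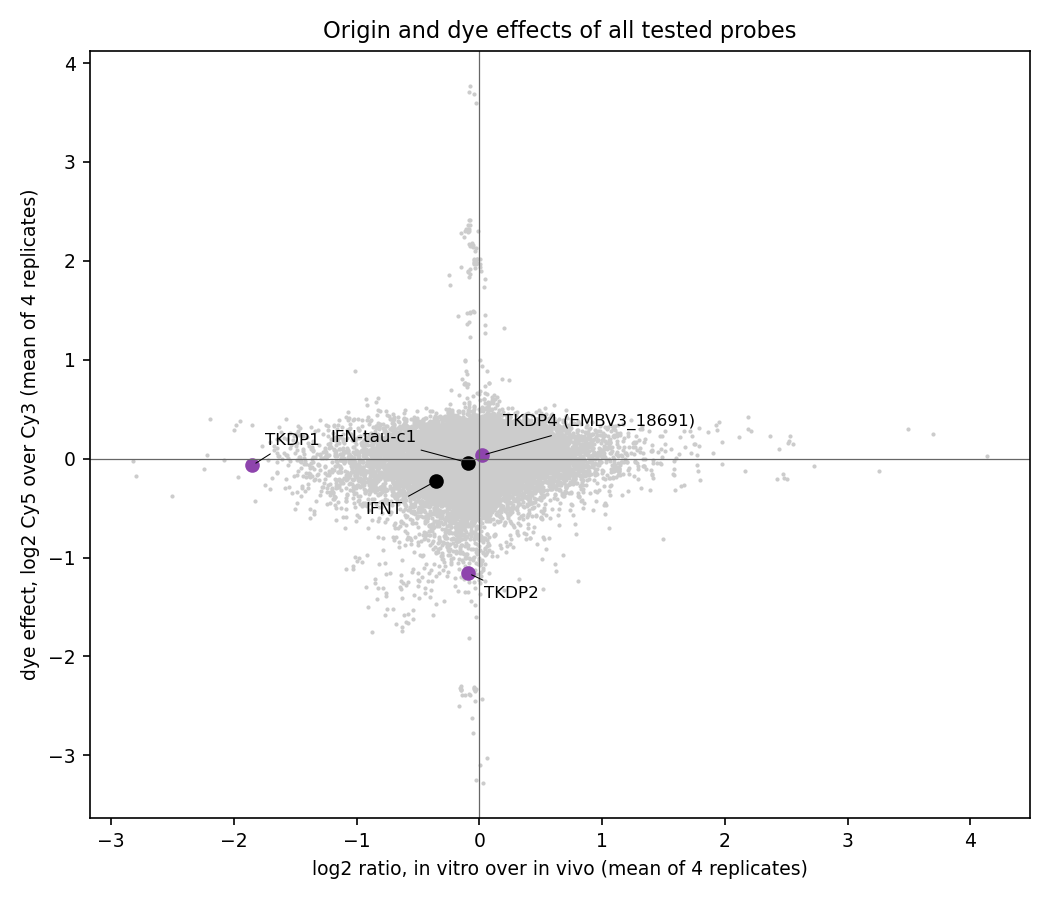
Mean log2 ratio of in vitro over in vivo (horizontal axis) and dye effect, log2 Cy5 over Cy3 (vertical axis), of all 24775 tested probes in grey, with the 5 tested member probes marked. TKDP1 lies far left at a dye effect near 0, and TKDP2 lies near 0 on the horizontal axis at a dye effect of -1.16.

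TKDP4 was read by a pair of probes, both at the edge of background. Probe EMBV3_18691 had log2 levels of 6.78, 6.88, 6.76 and 6.87 in vitro, against 6.78, 6.77, 6.82 and 6.84 in vivo. The samples overlapped throughout, and the uncorrected spots read 75.4 to 205 in vitro and 114 to 232 in vivo. It was detected on 6 of 8 arrays in vitro and on 8 of 8 in vivo. The ratio was 0.02 ± 0.06 (SE, n = 4; 95% interval -0.13 to 0.17; limma adjusted p = 0.886). Probe EMBV3_42599 was not tested, since it was detected on 4 of 8 arrays in vitro and 6 of 8 in vivo, and its mean ratio was 0.08. Its ratios also split by dye, with means of 0.60 where in vitro was in Cy5 and -0.45 where in vivo was in Cy5. At such levels a difference in TKDP4 could not have been read as a fold change.

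IFNT itself did not pass the test, but its in vitro samples were unequal. The log2 level was 11.12, 10.11, 11.27 and 10.77 in the in vitro samples of replicates 1 to 4, against 10.92, 11.15, 11.23 and 11.39 in the in vivo samples. The in vitro samples of replicates 2 and 4 lay below all 4 in vivo samples, and those of replicates 1 and 3 lay among them. The in vitro levels ranged over 1.16 log2 units (SD 0.51) and the in vivo levels over 0.47 (SD 0.20). The replicate ratios were 0.20, -1.04, 0.05 and -0.61, with a mean of -0.35 ± 0.23 (SE, n = 4; limma adjusted p = 0.407). The 95% interval, -0.94 to 0.24, runs from 0.520 to 1.18 of the in vivo level, so these replicates neither show a difference nor limit it closely.

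The scatter of IFNT lies between replicates and not between the 2 arrays of a number. With in vitro in Cy5 its ratios were -0.02, -1.18, -0.23 and -0.88, and with the dyes exchanged 0.43, -0.90, 0.32 and -0.35. Replicates 2 and 4 were below 0 in both orientations, and the dye effect of -0.23 ± 0.03 (adjusted p = 0.000525) had the same direction in all 4 numbers. The SD of 0.58 between replicate ratios was larger than that of 95.4% of all tested probes, whose median was 0.190. TKDP1, read on the same arrays, had an SD larger than that of 42.8% of them. Without replicate 2 the IFNT ratio was -0.12, and replicate 2 is the one that stands apart across the array.

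**Figure D3:**
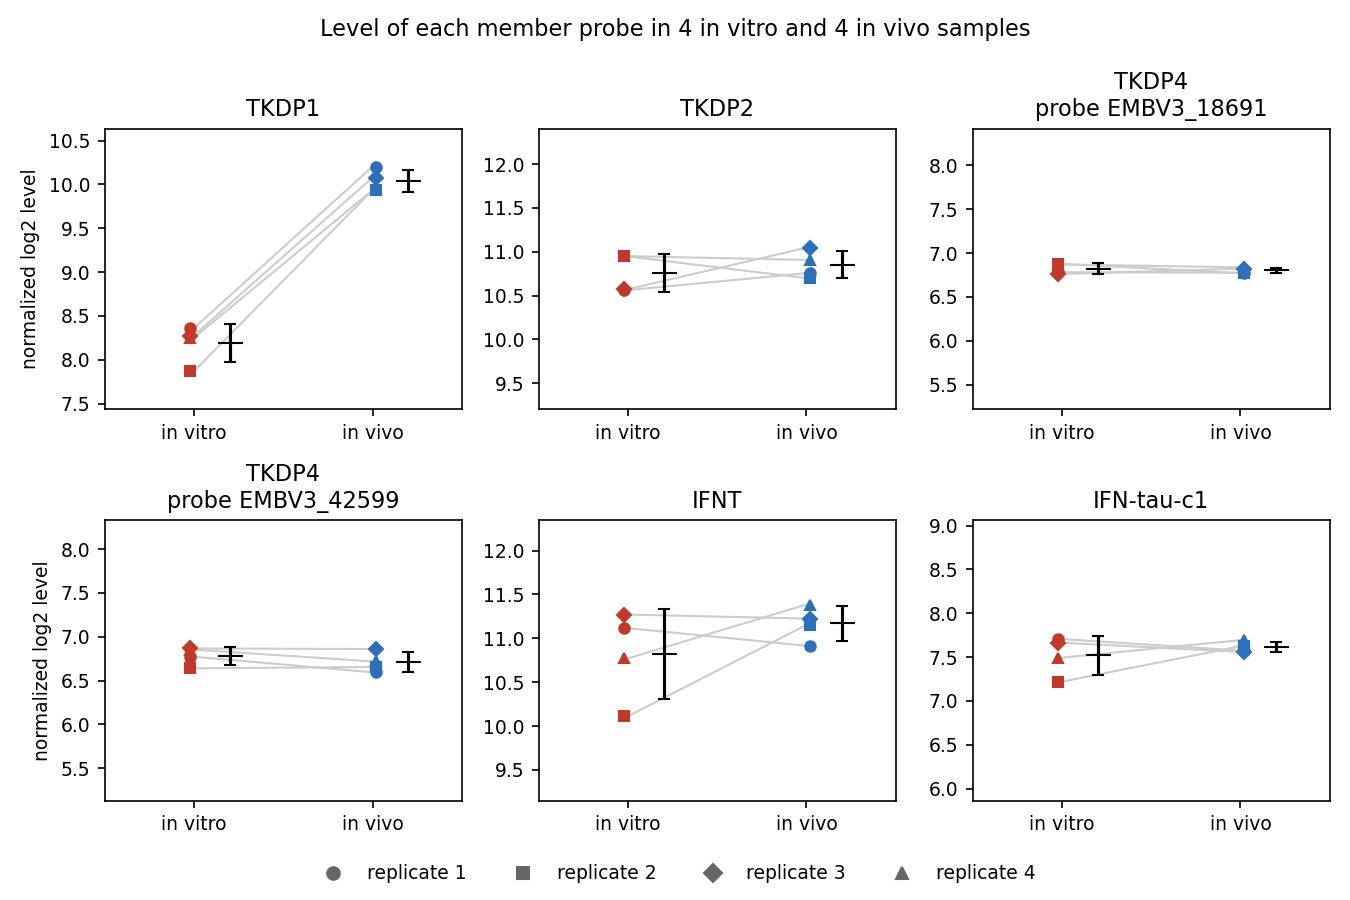
Normalized log2 level of each member probe (vertical axis, the same span in every panel) in the 4 in vitro samples (red, left) and the 4 in vivo samples (blue, right), lines joining equal replicate numbers, and the black bar giving mean and SD. TKDP1 separates the 2 kinds of embryo, and the in vitro IFNT levels spread over 1.16 log2 units.

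IFN-tau-c1, the second interferon tau probe, was dimmer and moved with IFNT from sample to sample. Its log2 level was 7.71, 7.22, 7.66 and 7.49 in vitro, against 7.57, 7.62, 7.56 and 7.69 in vivo. As with IFNT, the in vitro samples of replicates 2 and 4 were the lowest of the 8. The ratios were 0.13, -0.40, 0.10 and -0.20, with a mean of -0.09 ± 0.11 (SE, n = 4; 95% interval -0.38 to 0.19; limma adjusted p = 0.691). The levels of the 2 probes correlated at a Pearson r of 0.942 over the 8 samples, which share arrays, and how far the 2 probes read each other's transcripts was not tested. Uncorrected spots read 161 to 258 in vitro and 179 to 367 in vivo, and the probe was detected on all arrays.

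XIST, the noncoding RNA of the inactive X chromosome, had replicate ratios of -3.09, -2.02, 0.30 and -1.56 (mean -1.59 ± 0.55, adjusted p = 0.107 over genes). The sources used here do not give the sex of the embryos. IFNT and XIST were both lower in vitro in replicates 2 and 4, but replicate 1, with the lowest XIST ratio, had the highest IFNT ratio. The part of the sex makeup in the interferon tau values was not tested.

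Set against TKDP2, IFNT and IFN-tau-c1 within replicates, the TKDP1 ratio was the lower in 4 of 4. TKDP1, the only member called, was set as the reference with earlier results of these data known, so this order is no test of it. The difference of log2 ratios was -1.76 (SD 0.41) from TKDP2, -1.50 (SD 0.53) from IFNT and -1.76 (SD 0.23) from IFN-tau-c1. The difference from TKDP4 was -1.87 (SD 0.21), but the TKDP4 ratio comes from spots at the edge of background, so nothing is read from it. In an exact two-sided sign-flip test of 4 replicates each of the 4 differences gave 2 of 16 sign patterns as extreme as that seen. That is the smallest share the test can give, before or after adjustment over the 4, so no difference can pass the threshold of 0.05 at this size.

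Genes whose levels followed a member most closely over the 8 samples were named by Pearson r among 9064 genes, as a description of samples that share arrays and kinds of embryo. For TKDP1 these were MRPL33, a mitochondrial ribosomal protein gene (0.995), LOC618696 (0.994) and ANAPC1, a subunit of the anaphase-promoting complex (0.990). All of them were also lower in vitro, at -0.67 ± 0.05, -1.35 ± 0.09 and -0.63 ± 0.06 (limma, adjusted p over genes of 0.00502, 0.00502 and 0.00630). LOC618696, an unnamed protein-coding gene, has 1 gene between it and TKDP1 in the annotation. Its log2 level was 8.14, 7.87, 8.12 and 8.12 in vitro, against 9.69, 9.31, 9.44 and 9.22 in vivo. The groups did not overlap, beside 10.5% of all tested probes with in vitro below in vivo. The LOC618696 ratio was below 0 on 8 of 8 arrays, beside 18.8% of all tested probes that kept 1 sign. Both go with the way this gene was picked.

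TKDP2 was most like PEX7, a peroxisomal import receptor gene (0.944), ATPAF1, an assembly factor of ATP synthase (0.907), and SCAMP5, a secretory carrier membrane protein gene (0.895). TKDP4, near background, was most like LOC100298356 (0.953), AIDA (0.943) and CCDC85B (0.934). IFNT was most like LOC618801 (0.968), LOC781778 (0.963) and CWC27, a spliceosomal cyclophilin gene (0.956). IFN-tau-c1 was most like LOC618943 (0.976), LOC617112 (0.961) and the growth factor gene HBEGF (0.942). Apart from those named for TKDP1, none of these genes was called, with adjusted p-values over genes between 0.301 and 0.948 in limma.

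The 4 unnamed loci most like the interferon tau probes all stand in the same stretch of the annotation. Counted from IFNT2, the nearer of the 2 genes with the synonym IFNT, LOC618801 has 7 genes between and LOC781778 has 20, and counted from IFN-tau-c1, LOC617112 has 35 and LOC618943 has 36. A window of 40 genes on each side of both clusters was therefore read, a choice made after these values were seen. Beyond IFN-tau-c1 it held 8 tested genes, of which 6 have no gene name. All 6 were below 0 in replicates 2 and 4 and above 0 in replicates 1 and 3, the order seen for IFNT, beside 3.63% of all tested genes. An r with IFNT at least as high as the lowest of the 6 loci was found for 0.772% of the 9064 genes detected in all 16 channels. LOC618801, LOC781778, LOC617112 and LOC618943 had been picked for their likeness, so their order is no test of it. The replicate 2 ratios of the 6 loci ran from -1.06 to -0.33 and their mean ratios from -0.35 to -0.06, with adjusted p-values of 0.301 to 0.724 (limma). The other 2, LOC100298530 and LOC100298573, had an r with IFNT of 0.872 and 0.947, and both had levels near background. Detected on 7 and 6 of 8 arrays in vitro, they are not among those 9064 genes, which are a brighter set. The sources used here do not say what these loci encode, and reading of related transcripts by their probes was not tested.

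The other tested genes on that side behaved otherwise. KLHL9, an adaptor of a ubiquitin ligase, was higher in vitro (0.79 ± 0.07, adjusted p = 0.00555). IFNAC, an interferon alpha gene, had replicate ratios of -0.000446, -0.18, 0.03 and -0.04 and an r of -0.23 with IFNT. In the whole interferon tau window, 2 of 16 tested genes were higher in vitro, KLHL9 and IFT74 (0.49 ± 0.11), a gene of cilium transport, and 0 were lower in limma (2 at an unadjusted p under 0.05), beside 9.23% and 12.6% of all tested genes. In the TKDP window 3 of 24 tested genes were lower and 0 were higher in limma (2 at an unadjusted p under 0.05): LOC618696, YWHAB, which encodes a 14-3-3 protein (-0.78 ± 0.06), and CTSA, which encodes the lysosomal cathepsin A (-0.38 ± 0.08).

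**Figure D4:**
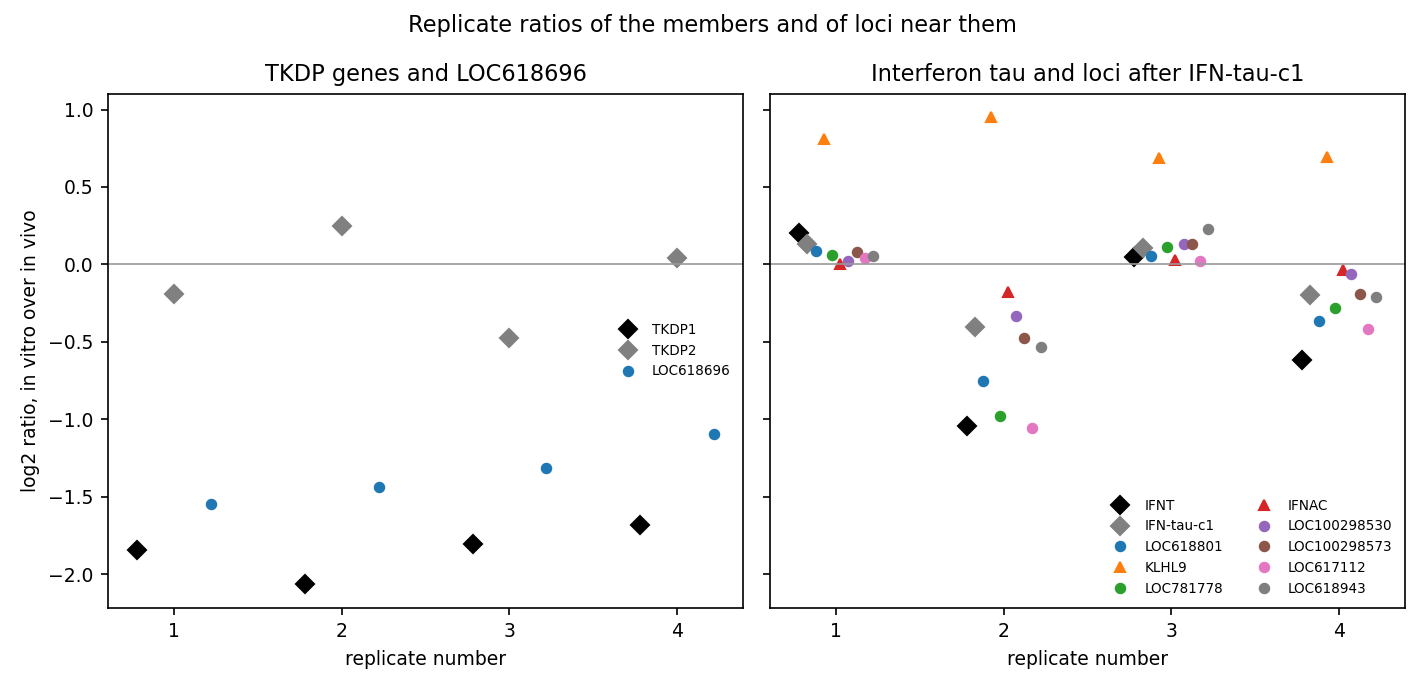
Replicate log2 ratios of in vitro over in vivo (vertical axis) by replicate number (horizontal axis), for TKDP1, TKDP2 and LOC618696 on the left and for IFNT, IFN-tau-c1 and the 8 tested genes beyond it in the annotation on the right. TKDP1 and LOC618696 lie below -1 in every replicate, and the unnamed loci on the right drop with IFNT in replicates 2 and 4.

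The regulators known for interferon tau changed in both directions. Of 26 listed, 17 were tested, and 5 were lower and 2 higher in vitro, with a median log2 ratio of -0.23, beside 12.6% lower and 9.23% higher of all 10188 tested genes and a median of -0.01. FOS, a subunit of the AP-1 factor that acts on interferon tau promoters, was lowest at -2.00 ± 0.09 (adjusted p = 0.00502), with replicate ratios of -2.05, -1.87, -1.85 and -2.22. TFAP2A (-1.41 ± 0.22, adjusted p = 0.0143) and GATA2 (-1.08 ± 0.09, adjusted p = 0.00534), transcription factors of the trophoblast, were also lower. CITED2, which binds the coactivator CBP, was higher at 0.72 ± 0.14 (adjusted p = 0.0253).

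The other calls in that list, beyond the 4 largest and named to complete the count, were the receptor FGFR2 and the homeobox gene DLX3, lower, and TFAP2C, higher. DLX3, at -0.45 ± 0.10 (adjusted p = 0.0395), was not called without replicate 2 (adjusted p = 0.0528). ETS2, the factor best known for driving interferon tau promoters, gave 0.23 ± 0.19 (adjusted p = 0.479), with replicate ratios of -0.32, 0.36, 0.80 and 0.06. CDX2, a trophectoderm factor that also acts on them, gave -0.35 ± 0.09 (adjusted p = 0.0584, and 0.0149 with the replicate number as a block), and was detected on 6 of 8 arrays in vitro. Without replicate 2 the list had 6 lower and 3 higher, and with the block 7 lower and 3 higher. Of all 10188 tested genes, 2063 were lower and 1626 higher without replicate 2, and 1742 and 1377 with the block.

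Genes of the receptor and its signalling gave no call. Of 12 listed, 7 were tested, and 0 were higher and 0 lower in limma (0 and 1 at an unadjusted p under 0.05), with a median of -0.03. The receptor subunit genes IFNAR1 and IFNAR2 had log2 ratios of 0.45 ± 0.20 (adjusted p = 0.190) and 0.24 ± 0.14 (adjusted p = 0.304). With the replicate number as a block 1 was higher and 1 lower, SOCS1 (0.61, adjusted p = 0.0406) and STAT2 (-0.45, adjusted p = 0.0189), both named after their values were seen. That fit called 1377 higher and 1742 lower of all 10188 tested genes. Without replicate 2 the list had 0 higher and 0 lower in limma, with SOCS1 at 0.30 (adjusted p = 0.0883) and STAT2 at -0.37 (adjusted p = 0.0938).

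Interferon-stimulated genes, the usual uterine and blood read-out of interferon tau, were tested here in the embryo itself. Of 35 listed, 17 were tested, and 1 was higher and 2 were lower in vitro in limma (3 and 2 at an unadjusted p under 0.05). The median was 0.05. OAS1, SAMD9, IFIT2, IFIT3, CMPK2, ADAR and MX2 had log2 levels of 6.77 to 7.09, close to those of TKDP4. Their ratios near 0, and the median, can therefore not be read as no change. PARP9, an ADP-ribosyltransferase family gene, was higher (0.85 ± 0.07, adjusted p = 0.00502). PLAC8 (-0.66 ± 0.06, adjusted p = 0.00529) and the galectin gene LGALS9 (-0.53 ± 0.13, adjusted p = 0.0491) were lower. LGALS9 was not called without replicate 2 (adjusted p = 0.0663) or with the block (adjusted p = 0.0753). ISG15, the classical marker of the response, was not tested: its 2 probes were detected on at most 7 of 8 arrays in vitro and 6 of 8 in vivo. Counts were 2 higher and 3 lower without replicate 2, beside 1626 and 2063 of all 10188 tested genes. With the block they were 3 higher and 2 lower, beside 1377 and 1742. IFITM2 had replicate ratios of -0.95, 0.31, -0.89 and -1.08, and IFITM3 of -0.83, 0.73, -1.17 and -0.99. Neither was called in the main fit (limma adjusted p = 0.143 and 0.322). Both were among the lower without replicate 2 (adjusted p = 0.00342 and 0.00402), and IFIT5 was among the higher (adjusted p = 0.0338).

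Of the other interferon genes, 7 of 24 listed had a probe and 1 was tested, IFNAC. Kunitz genes outside the TKDP family had 7 tested of 22 listed, with 0 higher (0 at an unadjusted p under 0.05 in limma) and 1 lower (median -0.03). The gene called was APLP2, an amyloid precursor-like protein gene (-1.18 ± 0.08, adjusted p = 0.00502). SPINT2, an inhibitor of membrane serine proteases, had replicate ratios of -1.31, 0.08, -1.23 and -1.02. Its mean of -0.87 ± 0.26 was not called (adjusted p = 0.0717), but was without replicate 2 (adjusted p = 0.00342) or with the block (adjusted p = 0.00785). That makes 2 lower in either case, beside 2063 and 1742 of all 10188 tested genes. SPINT1 was not tested, with detection on 4 of 8 arrays in vitro and 7 of 8 in vivo.

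Other secreted products of the ruminant trophoblast had 14 tested of 43 listed, with 1 higher and 1 lower in limma (1 and 5 at an unadjusted p under 0.05). The median was -0.02. PAG5, PAG7, PAG11, PAG16, PAG19, PAG20, PAG21 and PRP4 had log2 levels of 6.79 to 7.06, close to those of TKDP4. Their ratios near 0, and the median, can therefore not be read as no change. PTGS2, a prostaglandin synthase gene, gave -1.09 ± 0.34 (limma adjusted p = 0.0816, and 0.00928 with the block). PAG2, a pregnancy-associated glycoprotein gene of the aspartic protease family, was lower, at -0.76, -0.59, -0.59 and -1.58 in replicates 1 to 4 (mean -0.88 ± 0.19, adjusted p = 0.0339). PLET1, a placenta-expressed transcript, was higher (0.81 ± 0.20, adjusted p = 0.0455) and detected on 8 of 8 arrays in vitro and 2 of 8 in vivo. Its fold is therefore uncertain. There were 2 lower without replicate 2 and 3 lower with the block, beside 2063 and 1742 of all 10188 tested genes, and 1 higher in both.

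**Figure D5:**
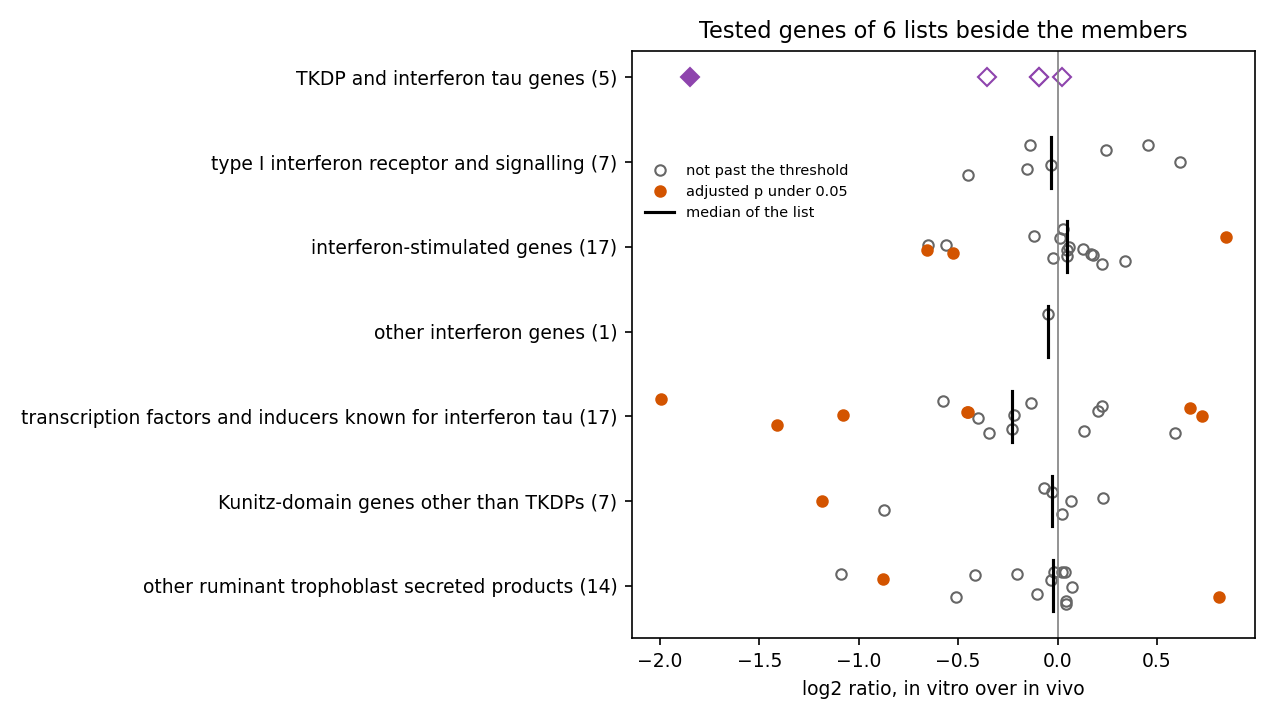
Log2 ratio of in vitro over in vivo (horizontal axis) of each tested gene in 6 lists and of the 5 tested member genes (diamonds), with the number tested in brackets. Filled symbols passed an adjusted p of 0.05 over genes, and the black line is the median of the list. TKDP1, at -1.85, lies below all but FOS.

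Of 12 tested trophectoderm markers, 5 were lower and 1 was higher in vitro and 6 were not called (median -0.43). Of 9 inner cell mass markers 2 were lower (TDGF1 and NANOG), and of 5 primitive endoderm markers 3 were lower (SPARC, HNF4A and PDGFRA). Of all tested genes 12.6% were lower and 9.23% higher. Without replicate 2 there were 6 trophectoderm and 5 primitive endoderm markers lower, and with the block 7 and 3. Of all 10188 tested genes, 2063 were lower without replicate 2 and 1742 with the block, against 1285 in the main fit. None of the 6 tested cumulus, 3 oviduct and uterus, 4 blood and 4 oocyte markers was called in limma, where an unadjusted p under 0.05 gave 1 cumulus gene lower, 1 blood and 1 oocyte gene higher and 0 of oviduct and uterus. Without replicate 2 the blood list had 2 genes higher in vitro, beside 1626 of all 10188 tested genes. The log2 levels of these cumulus, oviduct and uterus, blood and oocyte markers ran from 6.71 (ZP4 in vivo) to 8.17 (PTPRC in vitro). Most were near background, so the lack of calls does not show that such cells were absent or equal. Among the trophectoderm markers, the calls other than keratins were GATA2, TFAP2A and DLX3, lower, and TFAP2C, higher (0.67 ± 0.10, limma adjusted p = 0.0128). Of those not called, GATA3, CDX2, CLDN4, TEAD4 and ELF5 gave -0.40, -0.35, -0.22, -0.13 and -0.06. With the block GATA3 and CDX2 were called lower (adjusted p = 0.0202 and 0.0149). GATA3, CDX2, TEAD4 and ELF5 had low signal, at log2 levels of 6.85 to 7.40. The keratin genes KRT8, KRT18 and KRT19, named after their values were seen, were detected on all arrays of both kinds. KRT19 was lower in vitro at -2.50 ± 0.44 (adjusted p = 0.0203), a larger mean change than that of TKDP1, and KRT18 was lower at -1.46 ± 0.27 (adjusted p = 0.0223). KRT8 gave -1.01 ± 0.27 and was not called in limma (adjusted p = 0.0567, and 0.0532 with the block), but was without replicate 2 (adjusted p = 0.00441). Its ratios also split by dye, with means of -0.13 where in vitro was in Cy5 and -1.89 where in vivo was in Cy5. In whole blastocysts fewer cells of a type and less RNA per cell cannot be told apart, and the part of these markers in the TKDP1 difference was not tested.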

How the data were processed

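RNA of whole blastocysts was amplified and labelled with Cy3 and Cy5 per the labels' protocols. The authors deposited raw spot intensity and local background of 8 arrays, not background corrected per the file headers. They also deposited processed log2 ratios, whose columns followed the scanner values' log2 Cy5 over Cy3 with r of 0.975 to 0.976 with in vitro in Cy5 and -0.994 to -0.990 with in vivo in Cy5 (3869 bright probes), so they read in vitro over in vivo. Their medians in replicates 1 to 4 were -0.00385, 0.00131, -0.000779 and -0.00208 on slide 58 and 0.00119, 0.000800, -0.00359 and -0.00255 on slide 61. The sources used here do not give their normalization and centring.

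Background was removed with normexp at an offset of 50, and loess was run within each array with the 1425 control spots at weight 0, in limma 3.58.1 (R 4.3.3), and tables and figures were made with Python 3.11.15. All ratios read in vitro over in vivo. The 2 arrays of a replicate number pair, since their deviations from the slide mean correlated at 0.703, 0.894, 0.868 and 0.779 (highest with another number 0.149). They were averaged, giving n = 4. Detection was set by 153 negative control spots, with 60.4% to 83.0% of probes detected per channel and 56.6% tested. The highest member reading was 3592, far below the brightest spots (35630 to 40155). The mean ratio was tested against 0 with limma's moderated statistic (lmFit and eBayes, prior df 2.01), two-sided, with Benjamini-Hochberg adjustment over probes or, with the brightest tested probe per symbol, over 10188 genes, and a threshold of 0.05. The fit was tested on simulated data of 24775 probes and 4 replicates, where it called 59 of 100 probes changed by 1 and 90 of 100 changed by 2 on the log2 scale, with 3 false calls. The number of arrays limits the precision.

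Symbols are those of the platform annotation. Of 43795 probes, 21790 have 1 symbol, 0 several and 22005 none. Gene order comes from ARS-UCD2.0, and since the files name no genome build no coordinates are given.

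The members, lists and tests were chosen with earlier results of these data known. Named are all members, up to 4 called genes per list with the largest change, ETS2, CDX2, IFNAR1, IFNAR2, ISG15, SPINT1 and SPINT2, and the 3 genes most like each member. Other genes named were chosen after their values were seen. They are TFAP2C, FGFR2, DLX3, SOCS1, STAT2, CLDN4, TEAD4, ELF5, GATA3, IFITM2, IFITM3, IFIT5, PTGS2, the keratins, genes named for their levels and genes of the neighbour window. The neighbour window, the dye effect, the comparison within a dye, XIST and the lists without replicate 2 were added after the values were seen. Alternatives were other background corrections and normalizations, no filter, the deposited ratios, a replicate block, each slide alone and each replicate left out.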

Additional observations from a re-analysis of the deposited data

Results flagged for a closer look

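TKDP2 gave opposite signs on the 2 slides, with mean log2 ratios of -1.25 where in vitro was in Cy5 and 1.06 where in vivo was in Cy5, each over 4 replicates. The second TKDP4 probe, EMBV3_42599, did so in the other direction, at 0.60 and -0.45, and this difference was not tested because the probe was not above background often enough. The IFNT ratio also differed between the orientations, by a dye effect of -0.23 on the log2 scale (limma, adjusted p = 0.000525). Of 56 groups of 4 values examined for a stray sample, 1 was found, where chance gives about 1 in 20: the ratio of MRPL33 in replicate 1 stood apart from the other replicates by 0.930 of the whole range.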

How the results depend on the processing

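TKDP1 was called in all 13 alternatives of the probe test, with log2 ratios of -1.92 to -1.75 and a highest adjusted p of 0.0491, and IFNT was called in none (-0.58 to -0.12, lowest adjusted p 0.0981). With the replicate number as a block over 8 arrays, 2678 probes were higher and 3185 lower in vitro, against 1736 and 2181 with arrays averaged, and no member call changed. Probes called higher were 3064 and called lower 3855 on slide 58 alone, and 3195 were higher on slide 61 alone. Leaving out a replicate gave 211 to 3300 higher and 276 to 3890 lower, most without replicate 2. TKDP2 was -1.25 (adjusted p = 0.00432) on slide 58 alone, 1.06 (adjusted p = 0.00626) on slide 61 alone and 0.033 without replicate 3. On slide 61 alone TKDP4 was -0.013. Leaving out a replicate gave ranges of -1.90 to -1.78 for TKDP1, -0.21 to 0.033 for TKDP2, -0.0078 (without replicate 2) to 0.048 for TKDP4, -0.54 to -0.12 for IFNT and -0.17 to 0.012 (without replicate 2) for IFN-tau-c1. The differences of TKDP1 from the others then ran from -1.90 to -1.57 (TKDP2), -1.92 to -1.77 (TKDP4), -1.65 to -1.31 (IFNT) and -1.85 to -1.68 (IFN-tau-c1). Apart from the construction of the single-slide fits, which leave the dye in, the cause was not tested. Of 210 values under alternatives, 186 kept their direction and side of the threshold or were counted as close to the main value. The latter include 3185 lower probes with the block and 3157 on slide 61 alone, against 2181. Tested members enter both as probe and as gene with the same ratios, so the 210 are not separate checks. Signal over background limits TKDP4 and IFN-tau-c1.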
